A study of Mus musculus with 4 samples.

Results

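The genes described here write, erase and read histone acetylation, leaving aside the Gcn5 type of acetyltransferase itself. They were taken by symbol from the deposited expression values, with the older Myst names accepted for Kat6a, Kat6b, Kat7 and Kat8, and 40 of 40 were found among 23259 genes. By role they are 11 acetyltransferases, 18 deacetylases, 3 corepressor scaffolds and 8 genes of the Brpf and Brd families. Of these 8, Brd2 and Brd3 are BET proteins and the others carry bromodomains of other classes, so the 8 are called bromodomain genes and not BET genes.

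RNA was sequenced in 4 clones of mouse embryonic stem cells, to examine how expression changes without Gcn5. The KO group holds replicate 1, clone 4C2 of founder line 4, and replicate 2, clone 6C4 of founder line 6. Both lack exons 3 to 18 of Gcn5 on both alleles (Gcn5Δ3-18) and were picked as colonies from GFP-positive cells after transient transfection with a GFP-Cre vector driven by the EF1α promoter. The WT group holds replicate 1, clone 4-1 of line 4, and replicate 2, clone 6-1 of line 6, which were picked from the GFP-negative cells of the same sorts and keep the Gcn5 flox/flox alleles. All 4 were derived from blastocysts of Gcn5flox/flox mice, had a normal male karyotype, and the flox/flox lines were grown on fibroblast feeders in 15% serum with LIF. Each line and genotype is 1 clone, so within a line the genotype, Cre exposure and the clone itself cannot be told apart. P-values measure the spread between these clones.

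Acetyl groups on histone lysines loosen the contact of histone tails with DNA and serve as marks to which bromodomains bind. Acetyltransferases such as CBP, p300 and the MYST enzymes add them, and zinc-dependent HDACs and NAD-dependent sirtuins remove them, mostly as parts of large complexes built on scaffolds such as Sin3a and Ncor1. In embryonic stem cells CBP and p300 mark active enhancers, Tip60 (Kat5) and MOF (Kat8) are needed to keep the stem cell state, and Hdac1 is the main deacetylase of the class I complexes.

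Expression is given as FPKM, a level per transcript length, which the authors scaled to added control RNA according to the file headers. How deeply each library was sequenced is unknown. Gcn5 itself, listed as Kat2a, stood at 11.5 FPKM in both KO clones, against 38.7 and 34.4 FPKM in the WT clones (log2 fold change -1.58, SE 0.231, limma adjusted p = 0.0112). Without KO replicate 1 or KO replicate 2 the limma adjusted p was 0.426 and 0.472, at log2 fold changes of -1.58 and -1.59, and Kat2a did not pass after centring each library, with quantile normalization or without the filter on low values. With the founder line as a block Kat2a passed, at a limma adjusted p of 8.19e-11 as deposited and 0.0469 on centred values. All 11 embryonic stem cell markers reached 1 FPKM in all 4 libraries, with a sum of 3424 and 3584 FPKM in KO and 5420 and 4330 FPKM in WT. Feeder fibroblast markers, of which 16 of 22 reached 1 FPKM in every library, summed to 268 and 401 FPKM in KO and 349 and 335 FPKM in WT. The summed FPKM of all genes was also lower in KO, at 520491 and 538257, against 757931 and 680168 in WT. The spike-in entry ERCC-00004 was listed at 370 and 446 FPKM in KO and 1614 and 1829 FPKM in WT, while ERCC-00002 was listed at 5580 and 6742 FPKM in KO and 3238 and 3642 FPKM in WT. Which clone received which of the spike-in mixes is not given in the labels, and the part of the mixes in differences between KO and WT was not tested. In bulk samples such as these, fewer cells of a type and less RNA per cell cannot be told apart.

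Shown here are the promoters of the 5 genes that passed between the founder lines in the limma fit of the values as deposited with the genotype as a term. These 5 are 13.2% of the 38 genes tested, against 9.13% of all genes. None passed in that comparison with the line alone, against 1.98% of all genes, and 15 did on centred values (39.5%, against 30.2%). Between KO and WT none passed, against 0.0168% of all genes. Each is the window from 250 bases before to 50 bases after the gene's start, on the gene's strand, 5′ to 3′, from RefSeq in build GRCm38.p6, and the capitals mark E-boxes (CACGTG), GC boxes (GGGCGG), ETS sites (CCGGAAG) and CCAAT boxes (CCAAT) on either strand. Crebbp lies at chr16:4213355-4213654 on the minus strand, Hat1 at chr2:71389010-71389309 on the plus strand and Hdac11 at chr6:91156565-91156864 on the plus strand. Sirt3 lies at chr7:140882260-140882559 on the minus strand and Sirt4 at chr5:115484248-115484547 on the minus strand. The files' own build is mm9, and no position was carried over from it.
Crebbp: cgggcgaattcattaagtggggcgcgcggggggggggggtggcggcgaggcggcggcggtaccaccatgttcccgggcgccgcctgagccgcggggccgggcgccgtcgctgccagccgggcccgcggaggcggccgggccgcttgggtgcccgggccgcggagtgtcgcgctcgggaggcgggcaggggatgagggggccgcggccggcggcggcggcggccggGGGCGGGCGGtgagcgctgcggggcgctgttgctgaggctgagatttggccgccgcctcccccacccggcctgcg
Hat1: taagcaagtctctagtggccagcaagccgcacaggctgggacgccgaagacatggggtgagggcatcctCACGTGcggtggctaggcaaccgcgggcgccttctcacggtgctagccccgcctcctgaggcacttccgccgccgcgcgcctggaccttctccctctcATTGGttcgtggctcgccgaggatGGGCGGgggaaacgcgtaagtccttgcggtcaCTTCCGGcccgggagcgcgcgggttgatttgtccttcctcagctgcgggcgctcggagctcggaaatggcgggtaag
Hdac11: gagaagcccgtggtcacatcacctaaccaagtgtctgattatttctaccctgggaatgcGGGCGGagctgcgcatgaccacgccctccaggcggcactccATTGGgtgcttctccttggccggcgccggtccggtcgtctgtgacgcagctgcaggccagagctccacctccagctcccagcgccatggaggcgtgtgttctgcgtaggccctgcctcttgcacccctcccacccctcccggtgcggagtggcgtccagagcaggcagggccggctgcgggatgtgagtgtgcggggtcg
Sirt3: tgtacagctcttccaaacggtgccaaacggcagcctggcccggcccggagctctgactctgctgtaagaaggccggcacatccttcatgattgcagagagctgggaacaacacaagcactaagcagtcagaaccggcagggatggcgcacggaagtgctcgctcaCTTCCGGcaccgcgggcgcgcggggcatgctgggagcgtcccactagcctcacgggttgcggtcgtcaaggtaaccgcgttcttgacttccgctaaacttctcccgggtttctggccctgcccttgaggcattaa
Sirt4: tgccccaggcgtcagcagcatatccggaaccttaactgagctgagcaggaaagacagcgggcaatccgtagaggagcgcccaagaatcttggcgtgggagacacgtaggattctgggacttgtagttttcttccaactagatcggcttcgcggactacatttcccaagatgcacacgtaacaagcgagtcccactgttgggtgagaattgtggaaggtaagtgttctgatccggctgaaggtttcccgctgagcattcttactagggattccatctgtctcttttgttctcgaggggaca

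Of the 40 genes, 33 had a promoter window. A GC box stood in 24 of them (72.7%), Crebbp, Hat1 and Hdac11 among them, against 67.0% of the 8204 windows of genes tested and 35.9% of all 27025 windows. The ETS site stood in 30.3%, Hat1 and Sirt3 among them, against 19.3% of the genes tested and 9.14% of all windows. The E-box stood in 4 of 33 windows (12.1%), those of Kat5, Hat1, Hdac5 and Sirt1, against 902 of the 8204 windows of genes tested and 7.24% of all windows. The CCAAT box stood in 36.4%, against 40.1% of the genes tested and 38.0% of all windows. Sirt4 held none of the 4 motifs in its window. The median ratio of observed to expected CpG was 0.824 in the 33 windows and 0.781 over the genes tested. These matches are letters in a window and were not tested against expression.

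All of the acetylation enzymes and readers except Hdac7 and Hdac9 were expressed at 1 FPKM or more in all 4 clones. The filter for testing was a mean of 1 FPKM over the 4 libraries, which Hdac7 (0.949) and Hdac9 (0.225) missed and Sirt4 (2.06), the lowest of the 38 tested genes, cleared. Hat1, which acetylates newly made histone H4 in the cytoplasm, had the highest level, at 321 and 234 FPKM in KO replicates 1 and 2 and 440 and 281 FPKM in WT replicates 1 and 2. Next were the class I deacetylases Hdac1 and Hdac2, with means of 95.3 and 81.0 FPKM, then Brd2 with 54.0 and Hdac3 with 41.7 FPKM. Sirt4, Ncoa1 and Hdac10 were lowest among the genes tested, with means of 2.06, 2.40 and 2.98 FPKM. CBP and p300, encoded by Crebbp and Ep300, averaged 6.08 and 6.20 FPKM, so each was far below Kat7 (36.9 FPKM) or Hat1. The median gene of the 38 stood at the 58.6th percentile of all genes tested by mean level, and 14 of them stood above the 75th.

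**Figure D1:**
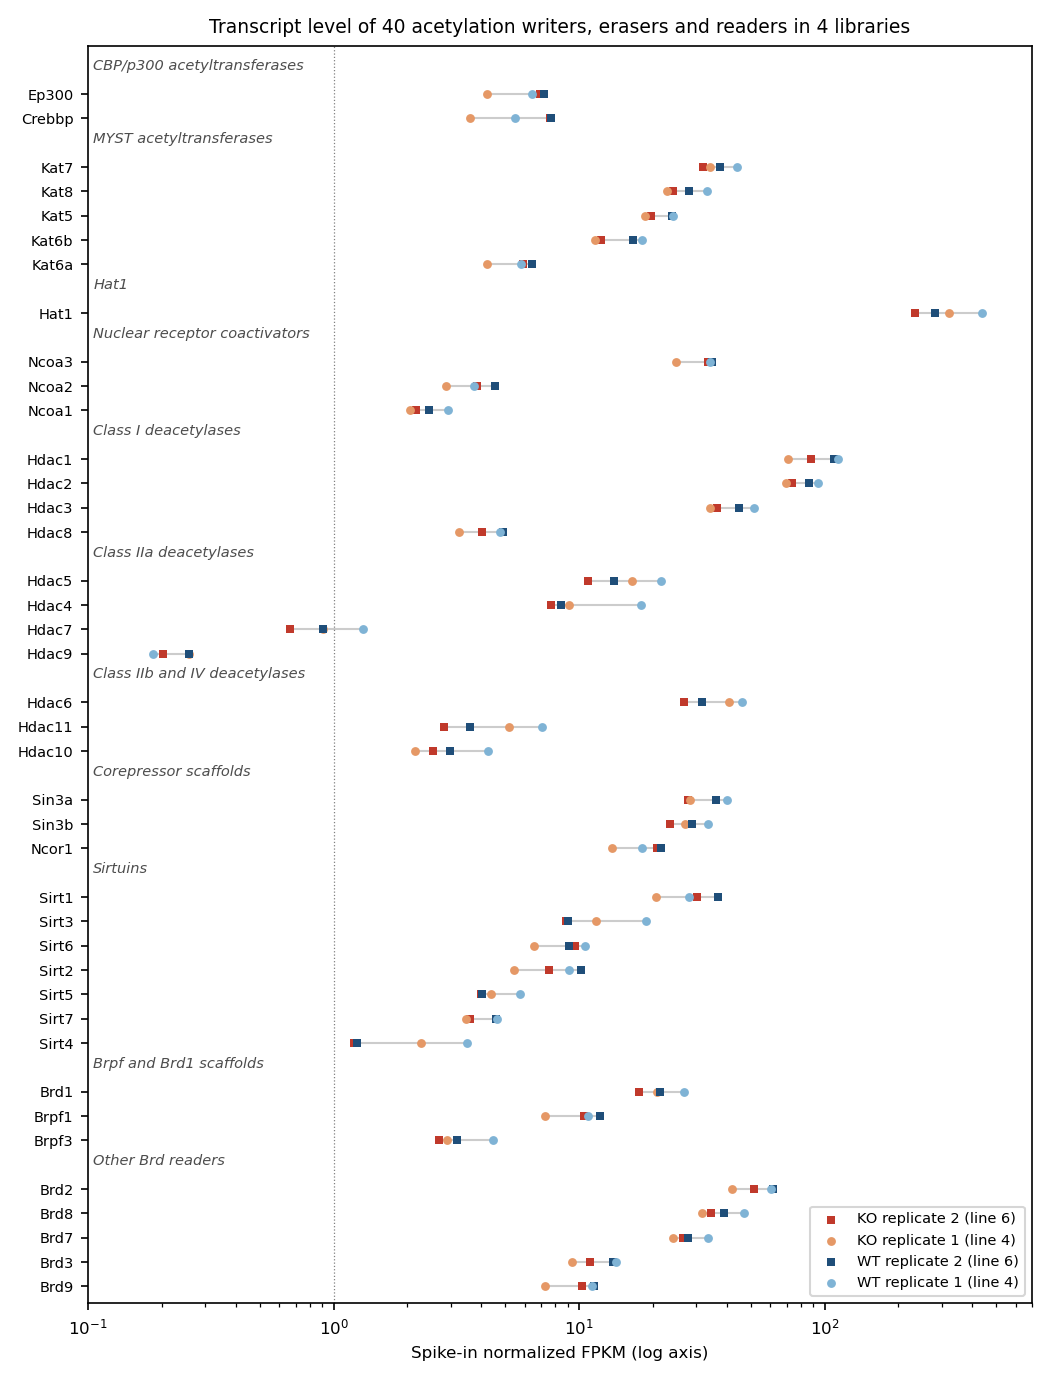
Expression of the 40 genes in the 4 clones, in FPKM on a log axis, ordered by role, with 1 point per library. Hat1 lies highest, between 234 and 440 FPKM, and Hdac9 lowest, near 0.2 FPKM; in most genes the KO points lie left of the WT points of the same line.

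Between KO and WT, no gene of the 38 passed the limma test, in which 2 of 11932 genes passed (0.0168%). In line 4 all 38 were listed lower in KO, and in line 6 37 were, Sirt6 being the exception, but most genes were lower too (97.6% of all genes in line 4 and 87.7% in line 6). The 38 had a median KO minus WT difference of -0.46 (line 4) and -0.21 (line 6) on the log2 scale, against -0.44 and -0.19 over all genes, so relative to the median gene the 38 lay at -0.018 and -0.027. After each library was centred on its own median, 14 of the 38 had a fold change above 0 (36.8%, against 45.9% of all genes), at most 0.14 (Sirt5) on the log2 scale, and none passed. Both KO libraries lay below both WT libraries for 23 of 38 genes (60.5%), against 59.8% of all genes tested. With the founder line as a block, again none of the 38 passed, against 95 of all genes (0.796%), and none passed with the block on centred values, against 33 (0.277%). At an unadjusted p under 0.05, 2 of the 38 stood out (5.26%), Hdac1 and Kat6b, against 5.54% of all genes. The limma adjusted p of the 38 ran from 0.445 to 0.609. With 2 libraries a group these data do not show that the 38 stayed level; 95% intervals are given for Hdac1, Kat6b, Hdac3 and Sirt2, which had the lowest p of the 38.

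**Figure D2:**
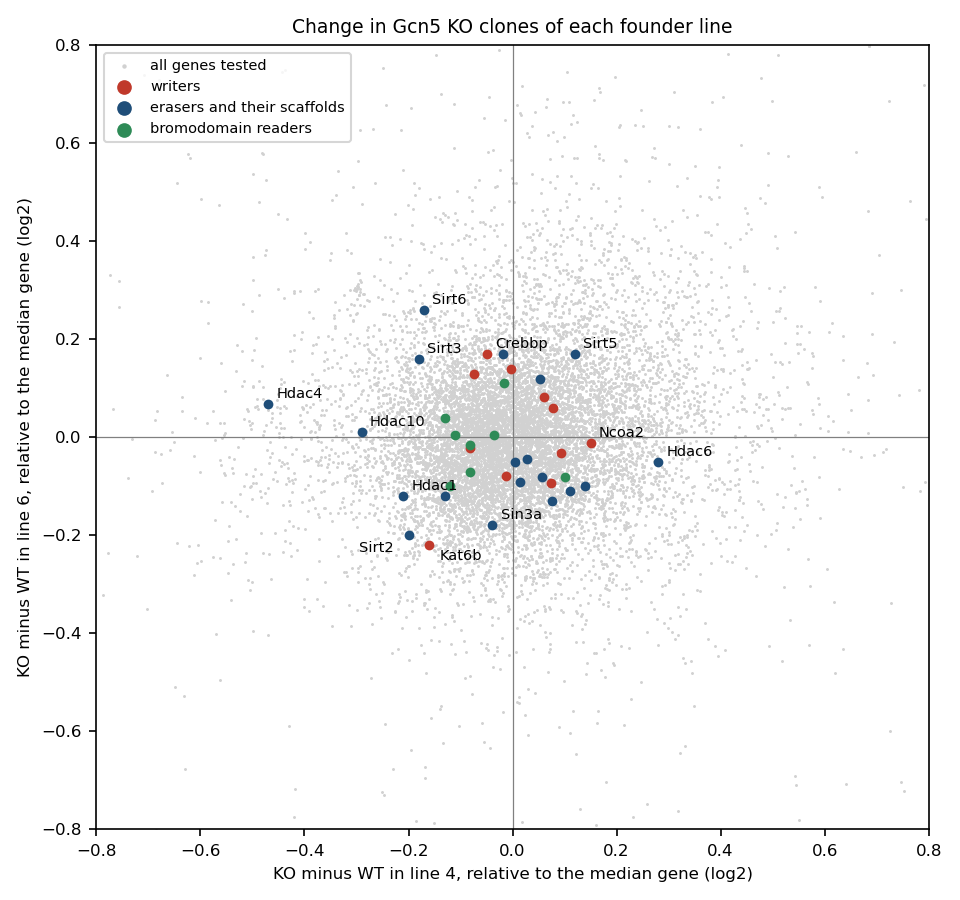
KO minus WT difference of log2(FPKM + 1), relative to the median gene, in line 6 (vertical) against line 4 (horizontal). Each grey point is 1 of 11932 tested genes, of which 148 lie beyond the limits of 0.8 and are not shown, and coloured points are the 38 acetylation genes; the greatest distances, Hdac4 at -0.47 in line 4 and Sirt6 at 0.26 in line 6, are each seen in a single line.

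Among the acetyltransferases, the pair CBP and p300, which acetylate histones at enhancers, was close to its WT level in line 6 and lower in line 4 as deposited. Relative to the median gene, Crebbp lay at -0.049 in line 4 and 0.17 in line 6, and Ep300 at -0.074 and 0.13. Crebbp was listed at 3.59 and 7.60 FPKM in KO and 5.46 and 7.68 FPKM in WT. Ep300 was listed at 4.21 and 6.91 FPKM in KO and 6.46 and 7.23 FPKM in WT. The KO and WT values overlapped in both genes, with KO replicate 2 above WT replicate 1, and the log2 fold changes of -0.25 (SE 0.30) and -0.29 (SE 0.27) did not pass.

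The MYST acetyltransferases acetylate histones H3, H4 and H2A variants as parts of several complexes. Kat5, the catalytic subunit of Tip60, was listed at 18.5 and 19.6 FPKM in KO and 24.2 and 23.9 FPKM in WT. Kat7, which encodes HBO1, was listed at 34.1 and 32.1 FPKM in KO and 43.8 and 37.5 FPKM in WT. Kat8, which encodes MOF, was listed at 22.8 and 24.2 FPKM in KO and 33.3 and 28.1 FPKM in WT. In all 3 the KO values lay below the WT values without overlap, as in 59.8% of all genes tested. Kat6b, which encodes MORF, was listed at 11.6 and 12.3 FPKM in KO and 18.1 and 16.6 FPKM in WT, with the KO values well below the WT values. Its log2 fold change was -0.50 (95% interval -1.01 to -0.0023, limma adjusted p = 0.445), and relative to the median gene it lay at -0.16 in line 4 and -0.22 in line 6. Kat6a, which encodes MOZ, its paralog, was listed at 4.20 and 5.92 FPKM in KO and 5.79 and 6.43 FPKM in WT, values that overlap, and lay at 0.06 and 0.083 from the median gene.

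Hat1 and the nuclear receptor coactivators were the other writers. Hat1 was at 321 and 234 FPKM in KO and 440 and 281 FPKM in WT, values that overlap, with line 6 low in both genotypes. The SRC coactivators Ncoa1, Ncoa2 and Ncoa3 bind ligand-loaded nuclear receptors. Ncoa1 was listed at 2.05 and 2.16 FPKM in KO and 2.93 and 2.45 FPKM in WT. Ncoa2 was listed at 2.86 and 3.84 FPKM in KO and 3.75 and 4.55 FPKM in WT. Ncoa3, much the highest of the 3, was listed at 24.8 and 33.6 FPKM in KO and 34.2 and 34.8 FPKM in WT. The KO values of Ncoa1 and Ncoa3 lay below those of WT, narrowly for Ncoa3 in line 6, as in 59.8% of all genes tested. Those of Ncoa2 overlapped.

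Among the deacetylases, the class I enzymes Hdac1, Hdac2, Hdac3 and Hdac8 had KO values below WT values without overlap, as did 59.8% of all genes tested. Hdac1, the catalytic subunit of the Sin3, NuRD and CoREST complexes, was listed at 71.0 and 88.3 FPKM in KO and 113 and 109 FPKM in WT. Its log2 fold change was -0.48 (95% interval -0.92 to -0.04, limma adjusted p = 0.445), and relative to the median gene it lay at -0.21 in line 4 and -0.12 in line 6. Its partner Hdac2 was listed at 69.9 and 73.7 FPKM in KO and 93.7 and 86.6 FPKM in WT, at 0.027 and -0.045 from the median gene. Hdac3, the enzyme of the NCoR and SMRT corepressors, was listed at 34.1 and 36.3 FPKM in KO and 51.5 and 45.0 FPKM in WT, with a log2 fold change of -0.44 (95% interval -0.90 to 0.018, limma adjusted p = 0.445). Hdac8, which deacetylates cohesin, was listed at 3.25 and 4.01 FPKM in KO and 4.76 and 4.91 FPKM in WT. Hdac1 and Hdac3 were below the median gene in both lines, and Hdac2 and Hdac8 on opposite sides of it.

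The class IIa deacetylases, which shuttle between nucleus and cytoplasm and bind Mef2 factors, were low or unequal between the lines. Hdac4 was listed at 9.06 and 7.70 FPKM in KO and 17.9 and 8.44 FPKM in WT, the high value being the WT clone of line 4 alone. On the log2 scale KO minus WT came to -0.91 in line 4, against -0.12 for the same gene in line 6. Hdac5 was listed at 16.5 and 10.9 FPKM in KO and 21.6 and 13.9 FPKM in WT. Hdac7 was listed at 0.906 and 0.664 FPKM in KO and 1.32 and 0.904 FPKM in WT, and Hdac9 at 0.258 and 0.201 FPKM in KO and 0.183 and 0.257 FPKM in WT, both without a test. All 4 genes had overlapping KO and WT values. On the opposite strand, 22.4% of the exon bases of Hdac4 are covered by the exons of another gene, and no source used here says whether counting used strand, so reads of the 2 genes cannot be told apart. The same holds for 12.1% of the exon bases of Kat5.

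Of the class IIb and IV enzymes, Hdac6, which deacetylates tubulin, was listed at 41.0 and 26.7 FPKM in KO and 46.1 and 31.6 FPKM in WT. Hdac10, a polyamine deacetylase, was listed at 2.15 and 2.54 FPKM in KO and 4.24 and 2.99 FPKM in WT. Hdac11, the class IV enzyme, was listed at 5.16 and 2.81 FPKM in KO and 7.07 and 3.58 FPKM in WT. Only for Hdac10 did KO lie below WT without overlap among these 3, while Hdac6 and Hdac11 were low in line 6 in both genotypes. The scaffold Sin3a, on which Hdac1 and Hdac2 are assembled, was listed at 28.3 and 27.9 FPKM in KO and 40.0 and 36.1 FPKM in WT. Its paralog Sin3b was listed at 27.0 and 23.4 FPKM in KO and 33.6 and 28.8 FPKM in WT. In both, KO lay below WT without overlap, as in Hdac10 and in 59.8% of all genes tested. Ncor1, the scaffold that binds Hdac3, was listed at 13.6 and 20.7 FPKM in KO and 18.1 and 21.6 FPKM in WT and overlapped.

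The sirtuins split between chromatin enzymes and mitochondrial ones. KO lay below WT without overlap only for Sirt2 and Sirt7 of the 7, against 59.8% of all genes tested. Sirt1, which deacetylates histones and p53, was listed at 20.6 and 30.1 FPKM in KO and 28.1 and 36.7 FPKM in WT. Sirt2, which deacetylates tubulin in the cytoplasm, was listed at 5.45 and 7.52 FPKM in KO and 9.09 and 10.2 FPKM in WT, with a log2 fold change of -0.52 (95% interval -1.07 to 0.03, limma adjusted p = 0.445). Sirt7, a nucleolar enzyme, was listed at 3.46 and 3.58 FPKM in KO and 4.62 and 4.61 FPKM in WT. Of these, Sirt2 lay at -0.20 from the median gene in each line. Sirt6, a chromatin deacetylase of telomeres and glycolysis genes, was listed at 6.56 and 9.62 FPKM in KO and 10.6 and 9.06 FPKM in WT. It was the exception among the 38, with a KO minus WT log2 difference of -0.61 in line 4 and 0.078 in line 6. Sirt3, Sirt4 and Sirt5 are the mitochondrial enzymes. Sirt3 was listed at 11.7 and 8.86 FPKM in KO and 18.7 and 9.02 FPKM in WT. Sirt4 was listed at 2.27 and 1.21 FPKM in KO and 3.50 and 1.24 FPKM in WT. Sirt5 was listed at 4.38 and 3.99 FPKM in KO and 5.74 and 4.04 FPKM in WT. In all 3 the WT clone of line 4 was highest, as also in Sirt6, Hat1, Hdac3 and others of the 38. That library had the largest summed FPKM of all genes (757931). The line 6 clones lay close together in Sirt3, Sirt4 and Sirt5, with KO minus WT log2 differences there of -0.022, -0.02 and -0.013.

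The scaffolds of MYST complexes and the readers closed the list. Brd1, Brpf1 and Brpf3 hold Kat6a, Kat6b or Kat7 on chromatin. Brd1 was listed at 20.8 and 17.5 FPKM in KO and 26.7 and 21.3 FPKM in WT. Brpf1 was listed at 7.26 and 10.5 FPKM in KO and 10.9 and 12.2 FPKM in WT. Brpf3 was listed at 2.91 and 2.68 FPKM in KO and 4.45 and 3.17 FPKM in WT. For each of the 3, both KO clones lay below both WT clones, as for 59.8% of all genes tested. The BET reader Brd2 was listed at 41.9 and 51.7 FPKM in KO and 60.8 and 61.9 FPKM in WT. The BET reader Brd3 was listed at 9.32 and 11.1 FPKM in KO and 14.2 and 13.7 FPKM in WT. Both lay a little below the median gene in both lines. Brd7 of PBAF was listed at 24.1 and 26.4 FPKM in KO and 33.6 and 27.8 FPKM in WT. Brd8 of the Tip60 complex was listed at 31.8 and 34.4 FPKM in KO and 47.2 and 39.1 FPKM in WT. Brd9 of the non-canonical BAF complex was listed at 7.26 and 10.3 FPKM in KO and 11.3 and 11.5 FPKM in WT. All 5 readers were listed lower in KO in both lines, as were most genes (97.6% in line 4 and 87.7% in line 6).

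By size on log2(FPKM + 1), 7 of the 38 were at least 1.5-fold lower in KO in line 4 (18.4%, against 16.1% of all genes). They were Kat6b, Hdac1, Hdac4, Hdac10, Sirt2, Sirt3 and Sirt6. By the plain ratio of FPKM in line 4 more genes reached this size, such as Sirt4 (KO over WT 0.647) and Brd9 (0.643). The share of all genes by that ratio was not computed. In line 6 the 38 ran from -0.40 (Kat6b) to 0.078 (Sirt6) on the log2 scale. Kat6b, Kat8, Hat1, Hdac1, Hdac3, Sin3a, Sirt2, Brpf1, Brd2 and Brd3 lay below the median gene in both lines, which is 26.3% of the 38 and 27.1% of all genes. Kat6a, Ncoa1, Ncor1 and Sirt5 lay above it in both (10.5%, against 27.1%), and the other 24 lay on opposite sides (63.2%, against 45.8%). These shares were not tested.

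Between the founder lines, some of these genes were higher and some lower, in both genotypes. Comparing the 2 clones of line 6 with the 2 of line 4 over both genotypes, 14 of the 38 genes had no overlap (36.8%, against 33.7% of all genes tested). Crebbp, Ep300, Kat6a, Ncoa2, Ncor1 and Sirt1 were higher in line 6 (15.8%, against 16.3%), and Hat1, Hdac4, Hdac5, Hdac6, Hdac11, Sirt3, Sirt4 and Sirt5 were lower (21.1%, against 17.4%). In the limma fit with the line alone, none of the 38 passed, against 236 of all genes (1.98%), and 4 of the 38 (10.5%) had an unadjusted p under 0.05, against 8.62%. Without KO replicate 1, the log2 differences of Hdac4, Hdac5, Hdac11, Sirt3 and Sirt4 with the line alone were -1.06, -0.77, -0.95, -0.98 and -1.02. Without WT replicate 1 they were -0.15, -0.40, -0.56, -0.36 and -0.55. For Crebbp the 2 values were 0.42 and 0.91. Line 4 is then a single clone of 1 genotype, so genotype enters these differences. With the genotype as a term, 5 passed (13.2%), against 1089 of all genes (9.13%). Of these, Crebbp was higher in line 6 (2.63%, against 3.67% of all genes) and Hat1, Hdac11, Sirt3 and Sirt4 were lower (10.5%, against 5.46%). On centred values 15 passed (39.5%, against 30.2%), 8 of them higher (21.1%, against 16.4%) and 7 lower (18.4%, against 13.8%), and with the genotype as a term on centred values 15 did (39.5%, against 29.6%). The line 6 clones were on the same side of the median gene in both genotypes for 31 of 38 genes (81.6%), against 80.2% of all. Formative and primed epiblast markers, of which 6 of 8 reached 1 FPKM in all 4 libraries, also differed between the lines, with sums of 191 and 250 FPKM in line 6 (KO, WT) and 105 and 104 FPKM in line 4, and endoderm markers, of which 0 of 7 did and 4 were under 1 FPKM throughout, summed to 6.12 and 8.42 FPKM in line 6 and 1.75 and 4.01 FPKM in line 4. Their part in the differences between the lines was not tested, and each genotype has 1 clone per line.

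**Figure D3:**
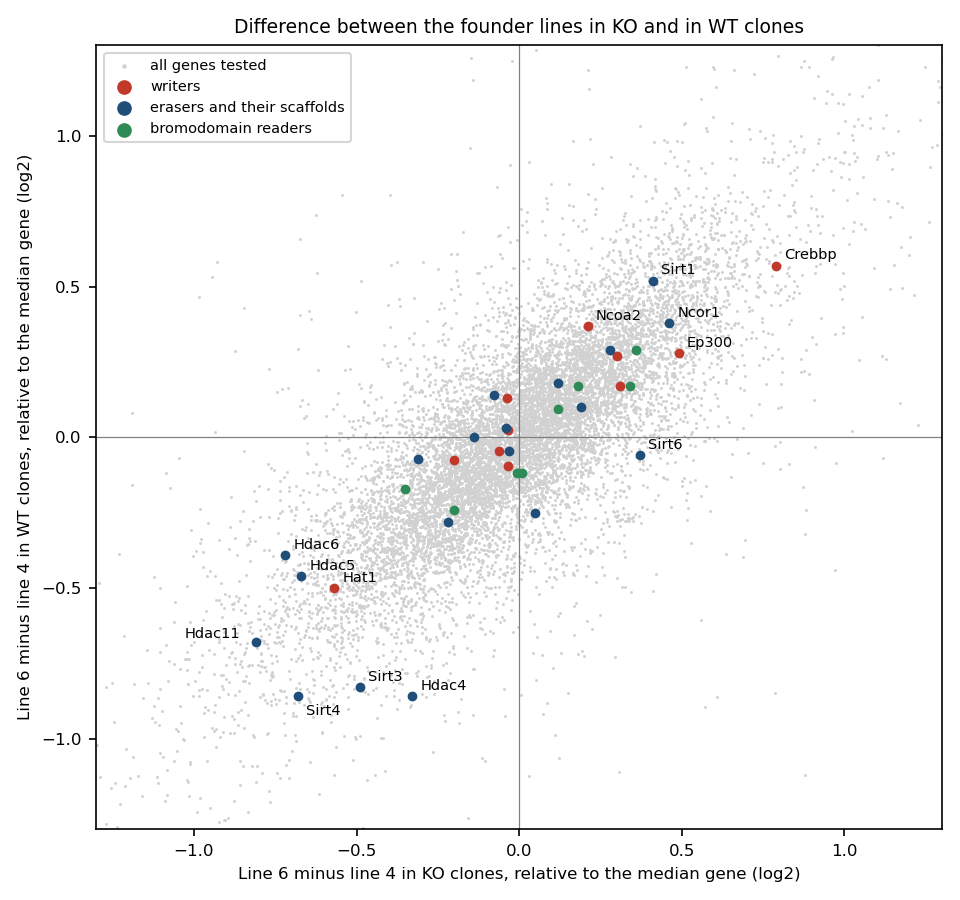
Line 6 minus line 4 difference of log2(FPKM + 1), relative to the median gene, in KO clones against WT clones, with all 11932 tested genes in grey (150 beyond the limits of 1.3 not shown) and the 38 acetylation genes in colour. Crebbp, Ep300, Ncor1 and Sirt1 lie in the upper right, higher in line 6 in both genotypes, and Hdac11, Sirt4, Hdac4 and Sirt3 in the lower left.

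Crebbp had the greatest difference toward line 6 of the 38. Its level was 7.60 and 7.68 FPKM in line 6 (KO, WT) and 3.59 and 5.46 FPKM in line 4. The log2 difference was 0.67 (SE 0.32 with the line alone) and it passed with the genotype as a term (SE 0.22, limma adjusted p = 0.0358) and on centred values (0.71, SE 0.089, adjusted p = 0.00475), but not with the line alone (adjusted p = 0.516). Its relative Ep300 was 6.91 and 7.23 FPKM in line 6 and 4.21 and 6.46 FPKM in line 4, a log2 difference of 0.37, and passed on centred values (limma adjusted p = 0.0160) but not with the genotype as a term as deposited (adjusted p = 0.339). Kat6a, Ncoa3, Ncor1, Sirt1, Brpf1 and Brd9 were the others that were higher in line 6 on centred values, with log2 differences there of 0.27 to 0.49. Ncoa3, Brpf1 and Brd9 overlapped between the lines as deposited, with WT of line 4 above KO of line 6, and Brd9 did not pass with the genotype as a term on centred values (limma adjusted p = 0.0536), where Sirt2 did (adjusted p = 0.0428). Leaving out a line 4 library moved these differences. Line 4 is then 1 clone of 1 genotype against both genotypes of line 6, so such a difference mixes genotype with line. As deposited, that of Crebbp was 0.42 without KO replicate 1 and 0.91 without WT replicate 1, and that of Ep300 was 0.11 and 0.63. Without KO replicate 1, those of Kat6a, Ncoa3 and Brpf1 were 0.079, 0.0024 and 0.047.

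Among the genes lower in line 6, Hat1 was at 234 and 281 FPKM in line 6 (KO, WT) and 321 and 440 FPKM in line 4, a log2 difference of -0.55 (SE 0.18 with the genotype as a term, limma adjusted p = 0.0269). Hdac11 was at 2.81 and 3.58 FPKM in line 6 and 5.16 and 7.07 FPKM in line 4, a log2 difference of -0.76 (SE 0.22, limma adjusted p = 0.0111). Its exons are covered on the opposite strand to 17.9%, so without stranded counting its reads and those of its neighbours cannot be told apart. Sirt3 was at 8.86 and 9.02 FPKM in line 6 and 11.7 and 18.7 FPKM in line 4, a log2 difference of -0.67 (SE 0.22, limma adjusted p = 0.0306), with opposite-strand exons over 12.7% of its own. Sirt4 was at 1.21 and 1.24 FPKM in line 6 and 2.27 and 3.50 FPKM in line 4, a log2 difference of -0.78 (SE 0.20, limma adjusted p = 0.00259), and had no such overlap. With the line alone none of the 4 passed (limma adjusted p = 0.833 for Hat1, 0.299 for Hdac11, 0.568 for Sirt3 and 0.0961 for Sirt4). Without WT replicate 1 the difference was -0.32 for Hat1 and -0.36 for Sirt3, and without KO replicate 1 it was -0.78 and -0.98. All 4 were low in both line 6 clones. Hdac11 and Sirt4 were at least 1.5-fold lower on log2(FPKM + 1), relative to the median gene, in both genotypes. Counting higher and lower genes together, 2 of 38 were this far apart the same way in both genotypes (5.26%, against 6.01% of all genes).

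The deacetylases Hdac4, Hdac5 and Hdac6 were also lower in line 6 on centred values, with log2 differences of -0.56, -0.54 and -0.53 (limma adjusted p = 0.0306, 0.00846 and 0.0171). Relative to the median gene, Hdac4 lay at -0.33 in the KO clones and -0.86 in the WT clones. As deposited, the difference of Hdac4 was -0.15 without WT replicate 1 and -1.06 without KO replicate 1. Hdac5 and Hdac6 were lower in line 6 in both genotypes (-0.56 and -0.60 in KO, -0.61 and -0.53 in WT). Sirt5, at -0.22 on centred values, did not pass (limma adjusted p = 0.147). The class I enzymes Hdac1, Hdac2, Hdac3 and Hdac8 and the readers Brd2, Brd3, Brd7 and Brd8 did not pass with the line alone, with the genotype as a term or on centred values, and overlapped between the lines.

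Ratios within a library do not change when all its values are multiplied by 1 factor. How the spike-ins scaled the values is not given, so whether the ratios depend on the scaling is unknown. Crebbp over Ep300 was 1.10 and 1.06 in line 6 (KO, WT) and 0.852 and 0.845 in line 4, so p300 transcripts outnumbered CBP transcripts per length in line 4 and not in line 6. Sirt1 over Sirt3, a chromatin sirtuin over a mitochondrial one, was 3.40 and 4.07 in line 6 and 1.75 and 1.51 in line 4. Brpf1 over Brd1, alternative scaffolds, was 0.598 and 0.573 in line 6 and 0.350 and 0.409 in line 4. The lines did not overlap in these ratios. Between genotypes, Hdac1 over Hdac2 was 1.02 and 1.20 in KO and 1.20 and 1.26 in WT, and Sin3a over Sin3b was 1.05 and 1.19 in KO and 1.19 and 1.25 in WT. Both were lower in KO of the same line, by little in line 6. Sirt6 over Sirt2 ran the other way, at 1.20 and 1.28 in KO and 1.16 and 0.892 in WT. No test was made of the ratios, which were chosen with the values known.

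**Figure D4:**
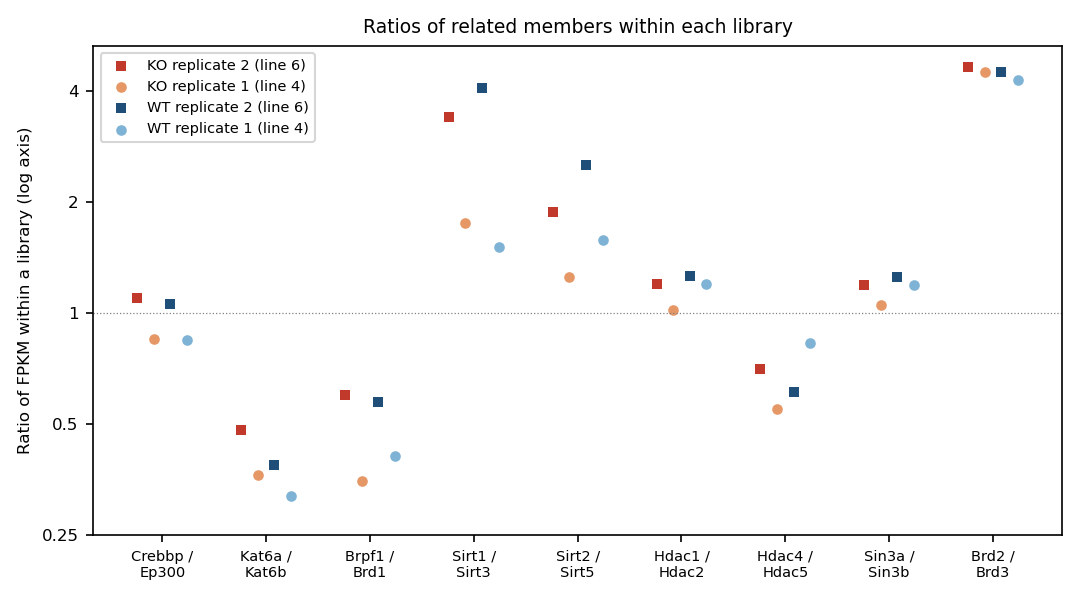
Ratios of FPKM between paired acetylation genes within a library, on a log axis, 1 point per clone. In the ratio of Crebbp to Ep300 the 2 line 6 points lie above 1 and the 2 line 4 points below it.

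The complexes these enzymes work in were followed with 106 further genes in 10 lists, of which 104 were tested. None passed between KO and WT, with or without the block, against 0.0168% and 0.796% of all genes. Between the lines none passed with the line alone, against 1.98% of all genes. With the genotype as a term 1 of the 104 was higher in line 6, Cdk2ap1 of NuRD. Lower were 4 of the 104, Acss1 and Acss2 of acetyl-CoA supply and Nadsyn1 and Nampt of NAD supply. Both are smaller shares than the 3.67% higher and 5.46% lower of all genes. Cdk2ap1 was listed at 99.7 and 125 FPKM in line 6 (KO, WT) and 58.3 and 78.6 FPKM in line 4 (limma adjusted p = 0.00457). Acss1, a mitochondrial acetyl-CoA synthetase, was listed at 1.56 and 2.22 FPKM in line 6 and 3.44 and 5.33 FPKM in line 4 (limma adjusted p = 0.000948), and Acss2, its nuclear and cytoplasmic relative, at 2.67 and 3.32 FPKM in line 6 and 5.84 and 6.94 FPKM in line 4 (limma adjusted p = 0.00164). Nampt, the rate-limiting enzyme of NAD salvage, on which sirtuins depend, was listed at 52.7 and 63.6 FPKM in line 6 and 78.8 and 101 FPKM in line 4 (limma adjusted p = 0.0217), and Nadsyn1 at 2.18 and 2.18 FPKM in line 6 and 3.35 and 5.37 FPKM in line 4 (limma adjusted p = 0.0117). On centred values 18 of the 104 were higher and 10 of the 104 lower in line 6, against 16.4% and 13.8% of all genes. By list, 5 of 10 NuRD genes (4 with the genotype as a term on centred values) and 2 of 5 partners of MOZ/MORF and HBO1 were higher. Of 16 Tip60 complex genes 3 were higher, and of 15 Sin3 complex genes 2 were higher and 1 lower. Of 10 MSL and NSL genes 1 was higher and 1 lower, and of 9 CoREST genes 1 and 1. In NAD supply 3 of 7 were lower, and in acetyl-CoA supply 3 of 8. Of 20 other bromodomain and YEATS readers 4 were higher and 1 lower, and of 4 NCoR/SMRT genes 0 were called. Over all genes 30.2% were called in either direction. The counts by list were not tested.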

How the data were processed

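The authors deposited 1 FPKM value per gene for each of the 4 libraries, scaled to spike-ins according to the file headers. Each table had 23376 entries, 92 of them spike-ins. Bowtie 0.12.8, TopHat2 2.0.9, affy, HTSeq, edgeR and the build mm9 are named, without roles, in the submitters' processing notes. How the spike-ins scaled the values, and whether counting used strand, are not given in the sources used here. Depth is unknown, so no counting interval is given. Names found in all 4 tables were kept, 23259 genes, and 25 unmatched names per table were dropped.

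The 40 genes and the related lists were chosen with earlier results of these data known. Each of the 40 is named; of each related list only genes that passed are named, which narrows the rule written at the outset of the 2 with the lowest p in each comparison. Tests used log2(FPKM + 1), a scale on which changes of low genes come out too small. The 11932 genes whose mean reached 1 FPKM were tested with limma 3.58.1 in R 4.3.3 (eBayes with a trend, two-sided, Benjamini-Hochberg over all genes, threshold 0.05). KO was compared with WT without a block, and line 6 with line 4 with the line alone. Other fits took the block or the genotype as a term, or centred values, with each library's median shifted to the mean of the library medians. Others took quantile normalization, a pseudocount of 0.1 FPKM, no filter, or left out 1 library. Replicate numbers mark the founder line, per the clone names in the labels, so they pair the samples; deviations of KO and WT of a line correlated at r = 0.695 across genes, which are not independent replicates. Exon overlaps were read from a GENCODE annotation. Promoter windows were read from RefSeq, build GRCm38.p6.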

Additional observations from a re-analysis of the deposited data

Results flagged for a closer look

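KO lay on opposite sides of WT in the founder lines for 2 of the 40 genes. Over all genes tested KO was below WT for 97.6% in line 4 and 87.7% in line 6, so other genes switched sides too. The share of all genes that did so was not computed, so the 2 genes are not shown to stand out. Sirt6, a chromatin deacetylase, had a KO minus WT log2 difference of -0.61 in line 4 and 0.078 in line 6. Hdac9, a class IIa deacetylase the lowest of the 40 in level and below the filter for testing, had a difference of 0.089 in line 4 and -0.066 in line 6. Each line has 1 clone per genotype, so the difference between the lines was not tested.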

How the results depend on the processing

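Between KO and WT, 0 of the 38 genes passed in every fit. Over all genes tested the number called was 0 after centring each library on its median, with quantile normalization and without the filter, 95 with the replicate block, 33 with the replicate block on centred values and 91 with the replicate block and a robust spread, and 0 to 133 without single libraries. The pairing by line changed no call among the 38. Between the lines the number called over all genes was 3602 on centred values, 3531 with the genotype as a term on centred values, 1089 with the genotype as a term, 3865 with quantile normalization, 0 without the filter, and 7 to 1607 without single libraries. Of the 38, 15, 15, 5 and 14 passed in these first 4 fits. Centring moved the median KO minus WT log2 difference of the 38 to 0.0034 in line 4 and -0.067 in line 6, and quantile normalization to -0.026 and -0.022. On centred values, with or without the replicate block, the log2 fold change turned positive for Crebbp (0.052), Ep300 (0.018), Kat6a (0.062), Kat7 (0.021), Ncoa1 (0.059), Ncoa2 (0.058), Ncoa3 (0.057), Hdac6 (0.11), Sin3b (0.011), Ncor1 (0.078), Sirt4 (0.065), Sirt5 (0.14), Sirt6 (0.037) and Brd7 (0.038). With quantile normalization it did so for Crebbp (0.038), Kat5 (0.012), Kat6a (0.037), Kat7 (0.065), Hat1 (0.042), Ncoa1 (0.01), Ncoa2 (0.034), Ncoa3 (0.10), Hdac2 (0.037), Hdac6 (0.15), Sin3b (0.05), Ncor1 (0.11), Sirt4 (0.0094), Sirt5 (0.11), Sirt6 (0.041), Brd1 (0.033) and Brd7 (0.075). Without single libraries it ranged from -0.71 to 0.20 for Crebbp, -0.59 to 0.014 for Ep300, -0.50 to 0.10 for Hdac6, -0.74 to 0.082 for Hdac11, -0.51 to 0.059 for Ncor1, -0.81 to 0.16 for Sirt3, -0.74 to 0.26 for Sirt4 and -0.38 to 0.04 for Sirt5. The line difference ranged from -0.049 to 0.60 for Sirt2 and from -0.043 to 0.53 for Brd9, and kept its sign for the other 16 genes whose line difference was recomputed, at 0.0024 to 0.45 for Ncoa3, 0.047 to 0.57 for Brpf1, 0.079 to 0.46 for Kat6a, 0.13 to 0.42 for Ncoa2, 0.21 to 0.60 for Ncor1, 0.23 to 0.66 for Sirt1, -0.77 to -0.40 for Hdac5 and -0.43 to -0.10 for Sirt5. Where a library is left out, the lone clone is assumed to vary like the others. Line differences then also hold a difference of genotype, and KO minus WT differences one of line. The cause of these changes was not tested. With 2 clones a group and unknown depth, small differences could not be shown.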
